A study of Mus musculus with 4 samples.

Results

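The 9 genes described here encode core factors of the pluripotent state of mouse embryonic stem cells, namely Pou5f1, Sox2, Sall4, Lin28a, Utf1, Dppa2, Dppa4, Dppa5a and Trim28. They were taken as every probe set that the annotation of the Affymetrix mouse array used gives to 1 gene only, that gene being one of the 9, which found 15 probe sets of 45101. A probe set is a group of short probes read out as 1 signal, and 5 of the genes had more than 1. RNA came from 4 embryonic stem cell lines, 2 labelled UTX conditional knockout (cKO lines 1 and 2) and 2 labelled UTX knockout (KO lines 1 and 2), with 1 array per line. UTX is a histone demethylase encoded by the X-linked gene Kdm6a, and the series asks which genes it regulates in these cells. All 4 lines were kept with serum and LIF on irradiated fibroblasts and were then passaged on gelatin to remove the fibroblasts. The labels call the cKO lines independent and do not say which part of Kdm6a was removed, whether a Cre recombinase was present in the cKO lines, or whether the KO lines were derived from them. Nothing in them says that the RNA samples were cultured on different occasions, so a p-value here measures only the spread between these samples, which may be technical. Pairs of signals below are given as line 1 and then line 2 of a genotype.

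OCT4, the product of Pou5f1, and SOX2 bind DNA side by side at many enhancers active in embryonic stem cells, and they keep each other's genes on. SALL4 is a zinc-finger factor that works with them and with the NuRD repressor complex, and UTF1 is a chromatin protein whose gene is a classical joint target of OCT4 and SOX2. LIN28A is an RNA-binding protein that blocks the maturation of let-7 microRNAs. DPPA2 and DPPA4 form a pair of SAP-domain proteins on chromatin, DPPA5A is a small KH-domain RNA-binding protein, and TRIM28 is the corepressor that zinc-finger proteins bring to retroelements.

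Kdm6a, the targeted gene, read 658 and 415 (cKO) against 265 and 198 (KO) at its brightest probe set (log2 fold change -1.17, limma adjusted p = 0.0884). The value was larger without cKO line 2 (-1.50) or KO line 1 (-1.38) and smaller without cKO line 1 (-0.84) or KO line 2 (-0.97). Kdm6a passed with each array centred on its median (-1.22, limma adjusted p = 0.00914) and with the line number as a block (limma adjusted p = 0.00811). It did not pass with no filter (adjusted p = 0.173) or with no variance trend (adjusted p = 0.157). The mean of its probe sets was at -0.57 (adjusted p = 0.522). A second Kdm6a set read 382 and 267 (cKO) against 153 and 132 (KO), and the other sets in that mean lay between 8.01 and 43.0, below the filter. The arrays were scaled to 1 common mean, and their median signal was 76.6 and 64.4 (cKO) and 81.6 and 64.9 (KO), higher for line 1 in each genotype. ES cell identity was checked on 10 marker genes outside the 9, of which 9 lay above the filter, Nanog and Zfp42 among them.

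A transcript start of 3 genes is shown because their transcripts gave the decrease that was called (Lin28a), the largest positive value (Sox2) and, as the best known of the 9, a gene that was not called (Pou5f1). RefSeq windows on GRCm38.p6 from 250 bases before to 50 bases after a transcript start were available for 5 of the 9 genes. The source used held none for Sall4, Dppa2, Dppa4 and Dppa5a. The 3 windows shown lie at chr4:134018767-134019066 on the minus strand for Lin28a, chr3:34649745-34650044 on the plus strand for Sox2, and chr17:35505782-35506081 on the plus strand for Pou5f1. The window of Lin28a is set on a transcript start 380 bases downstream of the gene's outermost annotated start, and those of the other four genes lie at the gene's start. Capitals mark matches, on both strands, to the GC box GGGCGG, bound by SP and KLF factors, and to the SOX motif CATTGT.
Lin28a: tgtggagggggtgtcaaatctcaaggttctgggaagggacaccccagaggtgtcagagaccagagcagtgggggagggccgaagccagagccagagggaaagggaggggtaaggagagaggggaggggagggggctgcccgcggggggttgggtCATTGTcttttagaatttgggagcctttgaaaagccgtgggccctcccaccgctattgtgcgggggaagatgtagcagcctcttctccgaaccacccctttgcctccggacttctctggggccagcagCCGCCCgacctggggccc
Sox2: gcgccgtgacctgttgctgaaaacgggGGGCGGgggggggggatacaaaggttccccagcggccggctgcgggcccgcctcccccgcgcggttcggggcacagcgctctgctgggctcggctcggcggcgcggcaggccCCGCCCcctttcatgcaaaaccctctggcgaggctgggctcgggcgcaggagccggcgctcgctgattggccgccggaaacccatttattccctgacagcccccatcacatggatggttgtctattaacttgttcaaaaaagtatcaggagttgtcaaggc
Pou5f1: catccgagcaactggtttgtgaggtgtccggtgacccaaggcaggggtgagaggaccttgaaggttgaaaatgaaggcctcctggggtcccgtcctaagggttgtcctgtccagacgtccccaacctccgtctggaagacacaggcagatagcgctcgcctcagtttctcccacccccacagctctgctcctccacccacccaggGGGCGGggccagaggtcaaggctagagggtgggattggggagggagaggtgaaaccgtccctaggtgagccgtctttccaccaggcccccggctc
The GC box was found in all 5 windows, once for Pou5f1 and Lin28a, 2 times for Sox2 and Trim28 and 4 times for Utf1, in overlapping matches for the last, and 35.7% of all 32851 promoter windows hold it. The SOX motif was found in the Lin28a window only of these 5, and 12.6% of all windows hold it. The octamer ATGCAAAT, which OCT4 binds, was in none of the 5 and in 1.74% of all windows. The windows held 10 CpG dinucleotides for Lin28a, 11 for Pou5f1, 17 for Utf1, 23 for Trim28 and 27 for Sox2, against a median of 7 over all windows. These matches describe the letters of the windows and no binding was measured.

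Lin28a was the core gene that fell in the UTX KO lines, to 63.1% of its cKO signal at its brightest probe set. Its other set, at 83% of cKO, did not pass, and the call did not hold under every setting, as given below. Sox2 had the largest positive value, at 130% of cKO, without passing the test. Of the 9 genes 1 fell, Lin28a, and 8 did not pass in limma, where a call needs an adjusted p under 0.05, with 0 called higher (0.632% of all genes were) and 2 of 9 at an unadjusted p under 0.05 (Lin28a and Sox2), where 13.8% of all genes were. That 1 call stands beside 240 calls in 10916 genes tested (2.2%), and 1.57% of all genes were called lower. All 9 genes passed the filter on low signal, and each is given by its brightest probe set. The log2 fold change was taken as KO minus cKO on the scale of log2(signal + 4.79). It was negative for 6 and positive for 3 (51.4% of all genes were positive), with a median of -0.06 against 0.01 for all genes. The median size of the log2 fold change was 0.0813 for the core genes and 0.171 for all genes, which were not matched for signal.

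**Figure D1:**
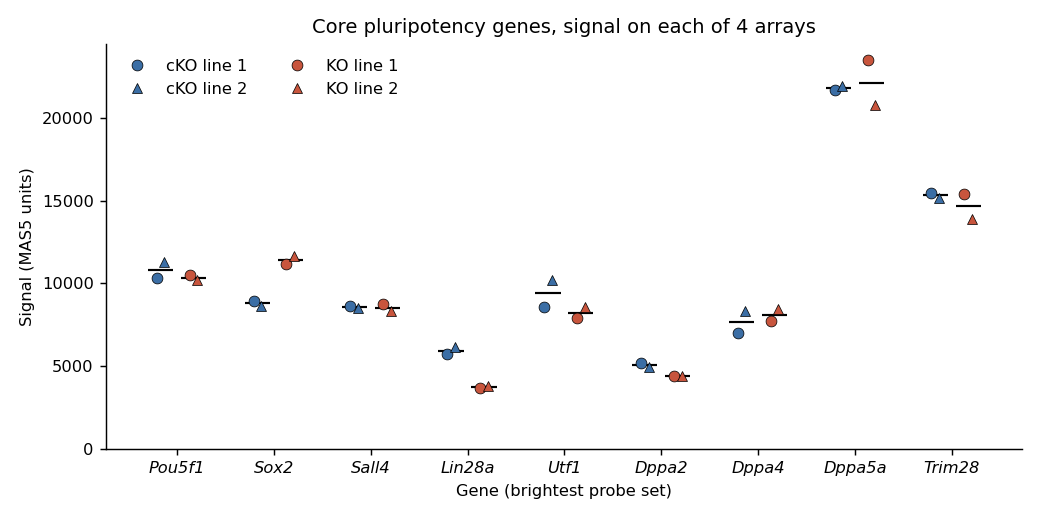
Signal of the brightest probe set of each core pluripotency gene on each of the 4 arrays, in MAS5 units on a linear axis from 0. Circles are line 1 and triangles line 2 of cKO (blue) and KO (red), and bars are group means of 2 lines; the red points of Lin28a lie below the blue ones and those of Sox2 above, while the groups overlap for 5 genes.

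The groups did not overlap for 4 of the 9 genes (44.4%), where 42.6% of all genes show the same, so the share was near that of the array as a whole. Both KO lines stood above both cKO lines for Sox2, as for 21.4% of all genes, and below them for Lin28a, Utf1 and Dppa2, as for 21.2% of all genes. For 3 genes, Sox2, Lin28a and Dppa2, the difference between the groups was larger than the difference between lines in either group. The share of all genes with this property was not counted, so the 3 cannot be set against it. Lines of the same genotype lay close together, with a median absolute log2 difference of 0.0737 in cKO and 0.0711 in KO, where all genes gave 0.195 and 0.211. This comparison was not matched for signal. The 9 sets read 3671 or more, where the array medians were 64.4 to 81.6. The second sets of Sall4, Lin28a and Utf1 gave 0.50, -0.42 and 0.33 between cKO lines, line 1 minus line 2. Those of Dppa2 and Trim28 gave 0 and 0.06. Between KO lines these sets gave 0.04, 0.06, 0.21, 0.22 and 0.04, in the same order. The standard errors of the 9 genes ran from 0.08 to 0.12, and the 95% interval of all 9 lay within a 2-fold change either way, as it did for 8690 of all 10916 genes.

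Pou5f1 read 10354 and 11273 (cKO) against 10504 and 10179 (KO). Both KO values lay below the middle of the cKO values, KO line 2 below both of them, and the groups overlapped. The means were 10814 ± 650 and 10342 ± 230 (SD, n = 2 each). This is a log2 fold change of -0.06 (95% interval -0.28 to 0.15, limma adjusted p = 0.847).

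Sox2 read 8957 and 8652 (cKO) against 11167 and 11669 (KO). Both KO lines stood above both cKO lines, by more than the lines of either genotype differed. The means were 8805 ± 216 and 11418 ± 354 (SD, n = 2 each), which puts KO at 130% of cKO. The log2 fold change was 0.37 (SE 0.09, 95% interval 0.16 to 0.58), but the limma adjusted p = 0.0994 missed the threshold. It ran from 0.33 to 0.41 over the alternatives tried and stayed positive in all 13. Sox2ot, the noncoding transcript that overlaps Sox2, lay near or below the filter level of 77.7, at 59.8, 42.8, 88.3 and 66.7 on the 4 arrays (cKO first), and was not tested.

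Sall4 read 8641 and 8545 (cKO) against 8754 and 8333 (KO), so the KO lines lay on either side of the cKO lines. Its log2 fold change was -0.01 (95% interval -0.23 to 0.21, limma adjusted p = 0.983). A dimmer probe set of Sall4 read 597, 419, 488 and 476 on the 4 arrays (cKO first) (log2 fold change -0.05). There the cKO lines stood further apart than the groups did.

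Utf1 was measured by 3 probe sets that differed in sign. The brightest read 8600 and 10193 (cKO) against 7904 and 8575 (KO), with means of 9396 ± 1126 and 8240 ± 475 (SD, n = 2 each). Both KO lines lay below both cKO lines, the nearer pair by a narrow margin. The log2 fold change was -0.19 (SE 0.12, 95% interval -0.46 to 0.09, limma adjusted p = 0.578). The second in brightness read 922 and 734 (cKO) against 958 and 827 (KO) (0.11, 95% interval -0.33 to 0.56), with overlapping groups. The dimmest stayed between 19.5 and 59.3, below the filter, and was the only 1 of the 15 not tested.

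Lin28a was measured by 2 probe sets. The brightest probe set read 5754 and 6132 (cKO) against 3671 and 3824 (KO). The cKO lines lay close together and well above the KO lines. The means were 5943 ± 267 and 3747 ± 108 (SD, n = 2 each), so KO kept 63.1% of the cKO signal. The log2 fold change was -0.66 (SE 0.11, 95% interval -0.93 to -0.40, limma adjusted p = 0.0346).

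The other Lin28a probe set read 1213 and 1625 (cKO) against 1200 and 1153 (KO). KO line 1 was nearly level with cKO line 1, and most of the distance between the groups came from cKO line 2. Its log2 fold change was -0.25 (SE 0.19, 95% interval -0.69 to 0.18), and in the fit across 18796 probe sets it did not pass (limma adjusted p = 0.702), while the brightest set did (limma adjusted p = 0.0451). Without cKO line 2 it was -0.04. With the mean of both sets in place of the brightest, Lin28a gave -0.46 (limma adjusted p = 0.231). The call of the brightest set in the fit across genes ended without cKO line 1 (-0.71, adjusted p = 0.06), and leaving out cKO line 2 ended it too (-0.62, adjusted p = 0.115), while the value changed little. It also ended with no filter on low signal (adjusted p = 0.0591), with each array centred on its median (-0.71, adjusted p = 0.308) and when eBayes used no variance trend (adjusted p = 0.13). In the fit across probe sets the call stood without cKO line 1 (adjusted p = 0.028). It ended there when cKO line 2 was left out (adjusted p = 0.0875) and when either KO line was (adjusted p = 0.088 for the loss of the first and adjusted p = 0.0841 for that of the second). Lin28b, the close relative of Lin28a, read between 7.63 and 33.4 on the 4 arrays, below the filter, and was not tested.

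**Figure D2:**
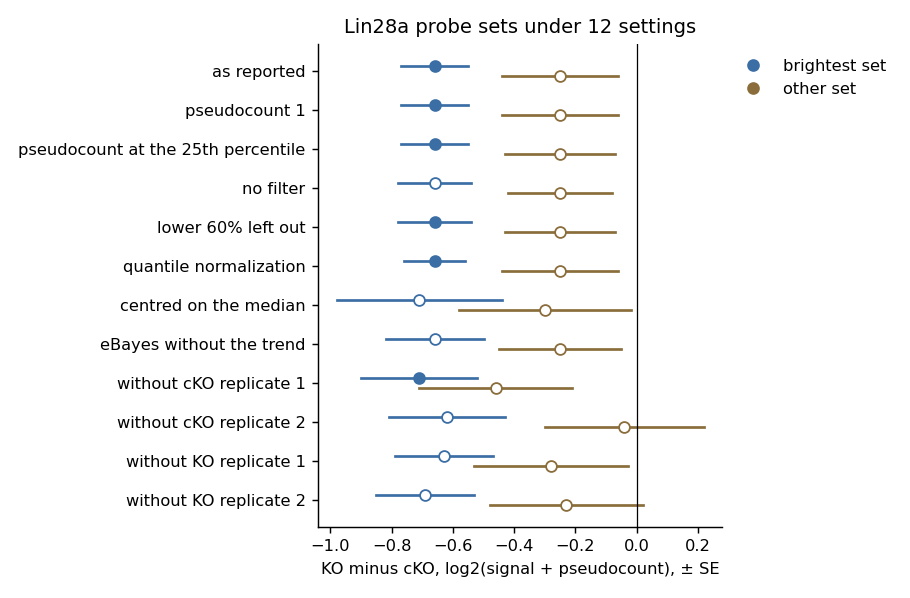
Log2 fold change of the 2 Lin28a probe sets, KO minus cKO with its standard error, in the fit across probe sets as reported and under 11 alternatives, with the block for the line number not drawn. Filled points passed an adjusted p under 0.05 in limma and open ones did not; the brightest set stayed between -0.71 and -0.62, and the other between -0.46 and -0.04 without a call.

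Dppa2 and Dppa4, neighbours on chromosome 16, went different ways in sign. Dppa2 read 5187 and 4929 (cKO) against 4423 and 4412 (KO) at its brightest probe set, with means of 5058 ± 183 and 4418 ± 7.50 (SD, n = 2 each). Both KO lines lay below both cKO lines, and the log2 fold change was -0.19 (SE 0.11, 95% interval -0.45 to 0.07, limma adjusted p = 0.532). The other Dppa2 set read 3719 and 3706 against 3227 and 2772 (log2 fold change -0.31, SE 0.13, limma adjusted p = 0.429 across probe sets), again with both KO lines below both cKO lines. Dppa2 had a negative value in all 13 alternatives (-0.25 to -0.16).

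Dppa4 read 6996 and 8317 (cKO) against 7726 and 8431 (KO). In each genotype line 2 read above line 1, and the groups overlapped. The log2 fold change was 0.08 (SE 0.12, 95% interval -0.20 to 0.36, limma adjusted p = 0.849), and it ran from -0.04 to 0.21 over the alternatives. Dppa5a read 21697 and 21940 (cKO) against 23491 and 20778 (KO). The KO lines lay on either side of the cKO lines, and the log2 fold change was 0.02 (95% interval -0.17 to 0.21, limma adjusted p = 0.959).

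Trim28 read 15472 and 15166 (cKO) against 15423 and 13926 (KO) at its brightest probe set. The other set read 14293 and 13708 against 14118 and 13756. On both sets the groups overlapped, with log2 fold changes of -0.06 (95% interval -0.27 to 0.14, limma adjusted p = 0.829) and -0.01 (95% interval -0.20 to 0.19).

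**Figure D3:**
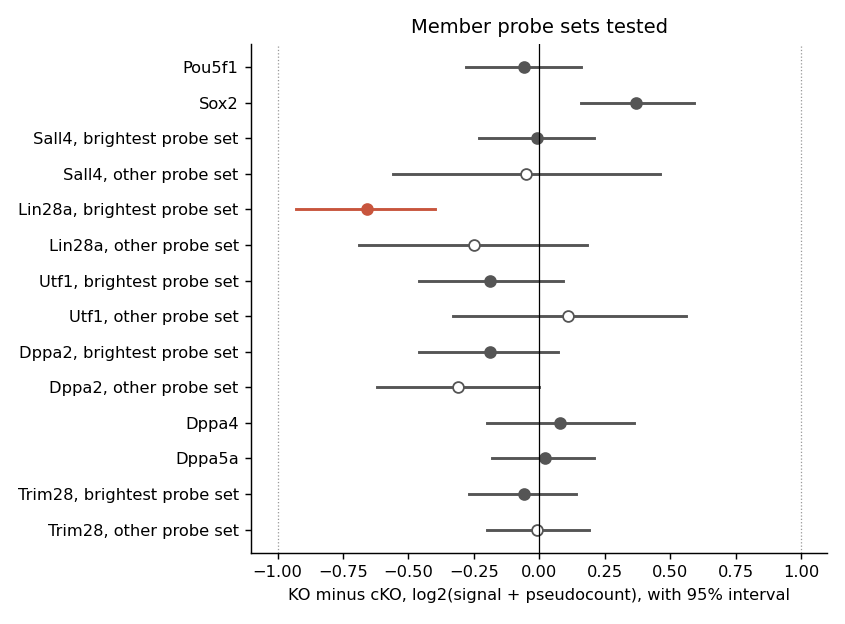
Log2 fold change, KO minus cKO, with its 95% interval for the 14 tested probe sets of the core genes, in the limma fit across all probe sets. Filled points are the brightest set of a gene, open points further sets, red the 1 set called and dotted lines a 2-fold change; the 14 intervals lie inside the dotted lines.

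Of 14 tested, 1 was called lower and 13 were not called, beside 1.27% of all 18796 probe sets called in either direction with 0.984% called lower and 0.287% higher. Of all 15, both KO lines lay above both cKO lines on 1 and below them on 5, and the groups overlapped on 9. Among all probe sets tested 21.1% lay above, 19.7% below, and 40.8% had groups that did not overlap. The 5 below were both sets of Lin28a, both of Dppa2 and the brightest of Utf1.

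Genes that OCT4 and SOX2 are known to bind were described as a list. Of 15 tested, 0 passed in limma and 6 had an unadjusted p under 0.05 (13.8% of all genes had). Of these 15, 11 had a positive value (51.4% of all genes had) and the median was 0.24, against 0.01 for all genes. Zfp42 (REX1), a naive-state zinc-finger gene, read 6622 and 5502 (cKO) against 8873 and 8312 (KO) (log2 fold change 0.51, limma adjusted p = 0.102). Lefty1, a secreted inhibitor of Nodal, read 9200 and 7521 against 5898 and 5575 (-0.54, limma adjusted p = 0.0953). Zfp42 passed without cKO line 1 (0.64, adjusted p = 0.0487) but was at 0.37 without cKO line 2 (adjusted p = 0.348). Lefty1 passed without cKO line 2 (-0.68, adjusted p = 0.0376) but was at -0.39 without cKO line 1 (adjusted p = 0.359). Utf1, Pou5f1 and Sox2 are themselves targets of the pair and are given above.

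Among 9 tested relatives in the POU and SOX families, 2 fell (1.57% of all genes did) and 7 did not pass. The median was -0.25, against 0.01 for all genes. Sox3, of the same subgroup as Sox2, read 398 and 337 (cKO) against 160 and 125 (KO), both KO lines below (log2 fold change -1.34, limma adjusted p = 0.0347). Sox4, a SOXC gene, read 4305 and 4958 against 1844 and 2423 (-1.13, limma adjusted p = 0.0256). The call of Sox3 ended without cKO line 1 (-1.22, adjusted p = 0.102), with no filter (adjusted p = 0.0916) and when its probe sets were averaged (-1.44, adjusted p = 0.2). Sox4 averaged over its probe sets was at -0.28 (adjusted p = 0.762).

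Of 16 tested SALL relatives and NuRD subunits 1 fell (1.57% of all genes did) and 15 did not pass. The median was -0.07, against 0.01 for all genes. The one that fell was Sall2, a spalt-like zinc-finger gene, at 311 and 356 (cKO) against 94.6 and 97.1 (KO) (log2 fold change -1.75, SE 0.23, limma adjusted p = 0.0185). Sall1 read 1063 and 845 against 1528 and 1236 (0.53, limma adjusted p = 0.26) and is named after its value was seen. The NuRD ATPase Chd4 read 4022 and 4775 against 3351 and 4626, with overlapping groups.

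The list around LIN28A holds factors of microRNA processing and known let-7 targets. The microRNAs themselves were not analysed here, and their sequences are shown for the seed (bases 2 to 8, in capitals) by which let-7 finds such targets, which 9 of 10 let-7 5' arms in the RefSeq table share.
let-7a-5p: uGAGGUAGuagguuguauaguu
let-7g-5p: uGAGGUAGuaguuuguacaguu
let-7i-5p: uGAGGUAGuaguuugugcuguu
Of 22 tested genes 1 fell (1.57% of all genes did) and 21 did not pass. A negative value was found for 15 (51.4% of all genes had a positive one). The median was -0.08, against 0.01 for all genes. The one that fell was Hmga2, a chromatin protein gene and a textbook let-7 target, at 1598 and 954 (cKO) against 393 and 394 (KO) (log2 fold change -1.64, SE 0.25, limma adjusted p = 0.026). Both KO lines lay far below both cKO lines, which differed between themselves. Igf2bp3, an RNA-binding protein gene named after its value was seen, read 1824 and 1633 against 1122 and 1072 (-0.65, limma adjusted p = 0.0874).

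Genes that depend on DPPA2 and DPPA4 or mark the 2-cell state were mostly dim. Of 16 on the list 5 had no probe set of their own, 6 lay below the filter and 5 were tested, of which 0 passed in limma and 2 had an unadjusted p under 0.05 (13.8% of all genes had), with a median of -0.22. Mael, a piRNA pathway gene, read 176 and 243 (cKO) against 96.8 and 69.8 (KO) (log2 fold change -1.28, limma adjusted p = 0.0994), and it passed without KO line 1 (-1.50, adjusted p = 0.023). Leaving out cKO line 2 gave a smaller value (-1.05, adjusted p = 0.452). Dppa3 (STELLA), a maternal factor gene, read 4606 and 5070 against 6332 and 6432 (0.40, limma adjusted p = 0.148).

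Of 19 tested partners of TRIM28 in repression, 1 fell (1.57% of all genes did) and 18 did not pass, with a median of 0.03. It was Dnmt3a, a de novo DNA methyltransferase gene, at 3359 and 4761 (cKO) against 897 and 1295 (KO) (log2 fold change -1.89, limma adjusted p = 0.017). Setdb1, the H3K9 methyltransferase that TRIM28 recruits, had a value of -0.23 (limma adjusted p = 0.583).

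Of 4 tested relatives of Dppa5a by KH domain or oocyte expression, 1 rose (0.632% of all genes did) and 3 did not pass. The median was 0.56, against 0.01 for all genes. Ooep, which belongs to the same small KH-domain family, read 4062 and 3952 (cKO) against 6498 and 6737 (KO) (log2 fold change 0.72, SE 0.11, limma adjusted p = 0.0256). Both KO lines stood above both cKO lines, whereas the groups overlapped for Dppa5a. Centring each array on its median ended the call of Ooep (0.68, adjusted p = 0.349). Khdc3, of the same family and named after its value was seen, read 578 and 684 against 1165 and 2299 (1.37, limma adjusted p = 0.0792), and it passed on leaving out cKO line 2 (1.50, adjusted p = 0.028), and likewise KO line 1 (1.86, adjusted p = 0.000178). Without KO line 2 it was at 0.88 (adjusted p = 0.0661) and without cKO line 1 at 1.25 (adjusted p = 0.06).

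**Figure D4:**
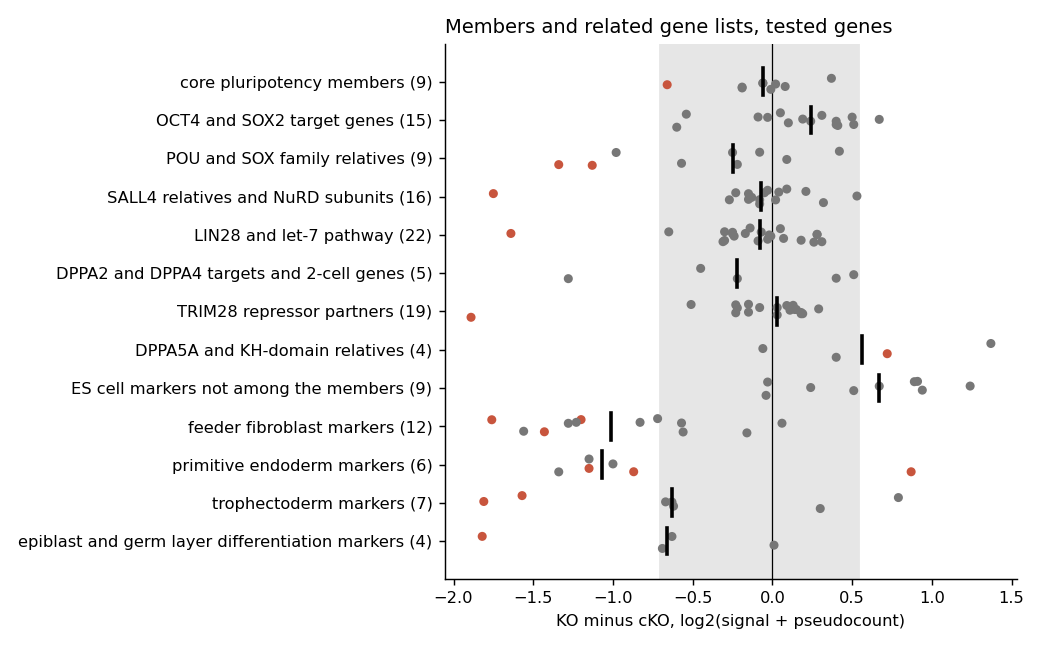
Log2 fold change, KO minus cKO, of every tested gene of the core set, the related lists and the marker lists, with the number tested in brackets. Red points passed an adjusted p under 0.05 in limma, black bars are list medians and the grey band spans the 5th to the 95th percentile of all genes (-0.70 to 0.54). The core median lies at -0.06, with Lin28a at -0.66 and Sox2 at 0.37. The fibroblast and primitive endoderm medians lie at -1.01 and -1.07.

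The summed signals of the marker lists of other cells given here were lower in both KO lines than in both cKO lines, while those of the core genes overlapped. The core sum ran from 91659 to 95145 in cKO and from 90127 to 93062 in KO. Such sums weigh bright genes most. In cKO line 1 Dppa5a read 21697 and Lin28a 5754 of the core sum of 91659. Tagln read 8938 there, of a fibroblast sum of 33764. The 17 feeder fibroblast markers with a probe set summed to 26268 to 33764 in cKO and 17963 to 18787 in KO, and 3 of 12 tested fell, Tagln (-1.76), Col5a1 (-1.43) and Thy1 (-1.20), with a median of -1.01. Without these 3 the list summed to 18372 to 24001 in cKO and 15383 to 16024 in KO. Both KO lines lay below both cKO lines for 10 of the 12, as for 21.2% of all genes. Beside the calls in each marker list, 1.57% of all genes were called lower and 0.632% higher. The groups overlapped for Fn1 (0.06), a bright member, and Postn (-0.16), and 5 markers were below the filter. The call of Col5a1 ended without cKO line 1 (-1.22, adjusted p = 0.0938), and that of Thy1 without cKO line 2 (-1.04, adjusted p = 0.163) and again without KO line 2 (-1.03, adjusted p = 0.0574). Both calls also ended with no filter (adjusted p = 0.0739 and 0.112) and when probe sets were averaged (adjusted p = 0.0563 and 0.0566). The 14 primitive endoderm markers summed to 6141 to 8010 in cKO and 4217 to 4288 in KO, with Col4a1 (-1.15) and Lamb1 (-0.87) called lower and Lama1 (0.87) higher of 6 tested, a median of -1.07. Without cKO line 1 the calls of Col4a1 (-0.85, adjusted p = 0.0911), Lamb1 (-0.77, adjusted p = 0.128) and Lama1 (0.89, adjusted p = 0.0791) all ended. So did that of Lamb1 without KO line 1 (-0.74, adjusted p = 0.0823), and that of Lama1 without cKO line 2 (0.85, adjusted p = 0.105) and again without KO line 2 (0.78, adjusted p = 0.104). None of the 3 passed with no filter (adjusted p = 0.0606 to 0.0709) or when probe sets were averaged (adjusted p = 0.0513 to 0.197). Gata4, Gata6 and Sox17 were among the 8 of that list below the filter. The 11 trophectoderm markers summed to 14327 to 20140 and 6074 to 8600, with Krt8 (-1.81) and Krt18 (-1.57) called lower of 7 tested and a median of -0.63. Without Krt8 and Krt18 that list summed to 1768 to 2765 in cKO and 2122 to 3234 in KO, so the groups overlapped. Both KO lines lay above both cKO lines for Tfap2c (0.79, limma adjusted p = 0.312) and Hand1 (0.30, limma adjusted p = 0.708), as for 21.4% of all genes. They lay below both cKO lines for 3, Krt8, Krt18 and Ascl2 (-0.67, limma adjusted p = 0.33), as for 21.2% of all genes. Cdx2, Gata3, Elf5 and Tpbpa were below the filter. Of 4 tested markers of epiblast and germ layer differentiation Nes fell (-1.82) and 3 did not pass, with a median of -0.66. Averaged over its probe sets Nes was at -0.78 (adjusted p = 0.443). The 10 ES cell markers outside the core set summed to 35203 to 43418 in cKO and 50211 to 60351 in KO, with a median of 0.67 over 9 tested, 0 called in limma and 5 at an unadjusted p under 0.05 (13.8% of all genes were). Tfcp2l1, a transcription factor gene of the naive state, had the smallest p of that list and read 2141 and 1169 (cKO) against 4342 and 3239 (KO) (log2 fold change 1.24, limma adjusted p = 0.0889). It was called in 5 of the 13 alternatives, among them without cKO line 1 (1.68, adjusted p = 0.00124), while it was at 0.81 without cKO line 2 (adjusted p = 0.0825) and at 0.45 when averaged over its probe sets (adjusted p = 0.764). With 1 array left out 0 to 6 of the 9 were called, the 6 without cKO line 1. In bulk RNA, fewer cells of a type and less RNA per cell cannot be told apart, and the part of these markers in the lower Lin28a signal was not tested.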

How the data were processed

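Each of the 4 lines was hybridised to 1 array. The deposited values are intensity signals, linear and 1 per probe set, produced by MAS5 (per the submitters' processing notes), whose version and settings are not given in the sources used here. After trimming 2% at both ends all arrays averaged 500.0, which shows a common scaling. The platform's annotation named 1 gene for 34945 of 45101 probe sets, 64 controls aside, and 34741 of these were matched to RefSeq (GRCm38.p6) by Entrez ID and took its symbol.

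A gene was represented by its probe set of highest mean log2 signal, and of 18193 genes the lower 40% (under a signal of 77.7) were dropped, leaving 10916. Signals were transformed as log2(signal + 4.79), the constant being the 10th percentile of all values, so that changes of dim genes are understated. The contrast of KO with cKO was fitted in limma 3.58.1 (R 4.3.3; lmFit, eBayes, variance trend; Benjamini-Hochberg over all genes; 2 residual and 5.13 prior degrees of freedom). A second fit used the 18796 probe sets naming 1 gene that reached the same signal. The 2 lines per genotype limit the precision, and an exact test over 4 arrays cannot pass 0.05. The procedure was tested on simulated data, and plots were made in Python 3.11.15 with matplotlib 3.10.9.

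The 9 genes and all lists were chosen with earlier results of these data known. Some genes stand on more than 1 list, so the lists are not independent. Nanog, Zfp42, Fgf4 and Tdgf1 are both OCT4 and SOX2 targets and ES cell markers here. Genes named are the 9, Kdm6a and, of each list, up to 4 called genes of largest change or else the 2 of smallest p. Others are said to be named after their values were seen or serve as examples chosen in that way (Sox2ot, Lin28b, Chd4, Setdb1, Nanog, Fn1, Postn, Gata4, Gata6, Sox17, Tfap2c, Hand1, Ascl2, Cdx2, Gata3, Elf5, Tpbpa). The alternatives tried were pseudocounts of 1 and of the 25th percentile, dropping no genes or the lower 60%, quantile normalization, median centring, averaging a gene's probe sets, a fit with no variance trend, a block for the line number, and leaving out single arrays, in which case a group's remaining line was taken to vary as the other group did.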

Additional observations from a re-analysis of the deposited data

How the results depend on the processing

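Of the 9 core genes, Pou5f1, Sall4, Utf1, Dppa2, Dppa4, Dppa5a and Trim28 passed under none of the 13 alternatives, and small values changed sign for Sall4 (-0.06 to 0.03), Utf1 (-0.31 to 0.05), Dppa4 (-0.04 to 0.21), Dppa5a (-0.07 to 0.11) and Trim28 (-0.14 to 0.01). Lin28a stayed negative in all 13 (-0.71 to -0.46) and passed in 7. The number of core genes called in limma was 0 with no filter (Lin28a adjusted p = 0.0591), with centring (0.308), without the trend (0.13) and with the mean of probe sets (0.231), and 0 to 1 with 1 array left out. At an unadjusted p under 0.05 it was 2 in these cases, or 1 with centring. Over probe sets it was 0 with no filter, with centring and without the trend, and 0 to 1 with 1 array left out (1 to 3 at an unadjusted p under 0.05). Over all genes 147 were called with no filter, 154 with the lower 60% left out, 28 without the trend, 129 with the mean of probe sets, and 228 to 432 with 1 array left out, the highest without KO line 1. Without the trend Sall2 kept its call, and each other gene that the text names as having risen or fallen lost it. The calls of Lamb1 and Col4a1 also ended with quantile normalization (adjusted p = 0.0505 and 0.0529), and those of Lamb1 and Lama1 with centring (0.107 and 0.135). The cause of these differences was not tested.

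The labels do not pair lines of the same number. Across genes the log2 difference of line 1 to line 2 in cKO correlated with that in KO (r = 0.52 over 10916 genes, which are not independent). The median signal of the arrays also went with the line number, at 76.6 (cKO) and 81.6 (KO) for line 1 and 64.4 (cKO) and 64.9 (KO) for line 2. Its part in the correlation was not tested. With the line number as a replicate block 1048 genes, 2 core genes (Lin28a, adjusted p = 0.00477, and Sox2, adjusted p = 0.0166) and 2 core probe sets were called. So were Kdm6a (adjusted p = 0.00811), 7 of the 15 tested OCT4 and SOX2 targets (5 higher, 2 lower), 6 of the 9 ES cell markers (all higher) and all 6 primitive endoderm markers tested (1 higher, 5 lower). Nanog and Zfp42 stand on both of the first 2 lists and are counted in the 7 and in the 6. Among the 15 core probe sets only the dimmest of Utf1 lay below the filter on low signal. Signal over background and limits at the bright end were not examined.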
